A study of Mus musculus with 6 samples.

Results

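Hox genes were followed across 6 expression arrays of mouse bowel. The rule took every gene whose symbol in the platform annotation is Hox followed by a cluster letter, a to d, and a paralog number. It found 33 Hox genes among the 18194 genes with a probe set that names 1 gene only, and no filter on low values was applied. The reference gene table lists 39 such Hox genes. Those with no probe set naming them alone were not analysed here, and 3 probe sets naming 2 Hox genes each were left out. Each gene was read from its probe set of highest mean over the 6 arrays. That choice mattered for some genes, since 11 of the 33 had several probe sets.

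Each array held total RNA from whole tissue, labelled as colon, of 1 C57BL/6 mouse. The 3 deficient mice carried floxed PPAR gamma alleles and Lysozyme M Cre, which deletes the gene in cells that use the lysozyme promoter, mainly macrophages and neutrophils. The 3 control mice were littermates with the same floxed alleles and no Cre. All 6 were 6 to 8 weeks old, drank 2.5% dextran sodium sulfate (DSS), which injures the colonic epithelium, and were killed on day 7, so no array shows untreated bowel. Because Cre came only with the deletion, an effect of Cre itself cannot be told apart from one of PPAR gamma loss. Pparg itself read 8.77, 8.23 and 4.15 on deficient arrays 1 to 3, against 5.28, 9.91 and 9.54 on control arrays 1 to 3. These values overlap over the 6 arrays. Lyz2, the lysozyme gene whose promoter drives the Cre, read 6.80, 6.24 and 10.39 against 12.32, 11.79 and 12.19, a difference of -4.29 (limma adjusted p 0.847). The Lyz2 values did not overlap between the genotypes.

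Hox genes encode homeodomain transcription factors that give cells along the head-to-tail axis their position. They lie in 4 clusters, on mouse chromosomes 6 (Hoxa), 11 (Hoxb), 15 (Hoxc) and 2 (Hoxd). Genes with low paralog numbers sit at one end and are used from anterior levels on, while genes with high numbers sit at the other end and are restricted to posterior levels. In the gut they are expressed in mesoderm and in endoderm, the Cdx factors act upstream of them, and Pbx and Meis proteins bind DNA with them. Paralogs 1 to 3 are called anterior here, 4 to 8 central and 9 to 13 posterior.

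The arrays differed in tissue profile, which set the frame for every Hox comparison. Apoa1, which small intestinal enterocytes make for lipid export, read 15.23 on deficient array 3 and 15.46 on control array 1, against 7.38 and 4.72 on deficient arrays 1 and 2 and 3.85 and 3.82 on control arrays 2 and 3. The arrays above log2 12 are called the 2 Apoa1-high arrays. Of 11 small intestine enterocyte markers measured, 10 were set apart and higher there, among them Apoa1 itself, which the division fixed. Set apart means, here and below, that the groups did not overlap and that their means differed by at least 1 on the log2 scale. Over all genes 3.25% were set apart and higher and 4.83% lower. Of 6 colonocyte markers, Car1, Aqp8 and Cyp2c55 were set apart and lower. The further 3 overlapped, with Car4 at 13.37 and 11.02 on the Apoa1-high arrays of the deficient and control mouse against 11.89 to 13.16 elsewhere. Slc26a3 read 10.32 and 11.05 there against 10.34 to 11.58, and Retnlb 11.64 and 2.32 against 11.45 to 14.10. Some colonocyte markers were thus low on these 2 arrays and others were not. The division rests on a measured level and not on a label, so differences across it are a description with no test. One Apoa1-high array belongs to each genotype. Pparg was low on both, and its deficient minus control difference was -1.22 among the 4 other arrays, where the genotypes were set apart, and -1.13 between the Apoa1-high arrays. With the Apoa1-high arrays as a block it was -1.19 (SE 0.20, limma adjusted p 0.493). Xist, which is made from an inactive X, was at 12.11 on control array 2 and at 2.25 on the other arrays.

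Values are log2 units, and the lowest, 2.25, is called the floor. Some probe sets rested at a higher level, such as that of Hoxb2 at 3.95 on every array. A reading above log2 4 is thus a cut and no proof of signal. Of the 33 Hox genes, 18 were above log2 4 on at least 1 array and 6 were above it on all arrays. Over all genes, 11341 of 18194 were above 4 on at least 1 array and 9769 on all arrays. The 15 Hox genes under 4 throughout read between 2.25 and 3.95. They were Hoxa2, Hoxa4, Hoxa13, Hoxb1, Hoxb2, Hoxb7, Hoxc5, Hoxc9, Hoxc10, Hoxc13, Hoxd1, Hoxd3, Hoxd11, Hoxd12 and Hoxd13. Hoxa13 and Hoxd13, which pattern the terminal hindgut in the embryo, were among them, at 2.25 to 2.64 and 2.25 to 2.36. For Hoxb7 and Hoxd3 the left-out probe sets read higher. The one naming Hoxb7 with Hoxb8 read 4.58 to 6.82. Those naming Hoxd3 with Hoxd4 read 3.79 to 5.02 and 2.25 to 5.08. Which gene of each pair gave that signal cannot be told. Between 12 and 13 Hox genes were above 4 on each deficient array, against 10, 14 and 15 on control arrays 1 to 3. Levels of different probe sets are not on a common scale, so no Hox gene is ranked against another by level.

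**Figure D1:**
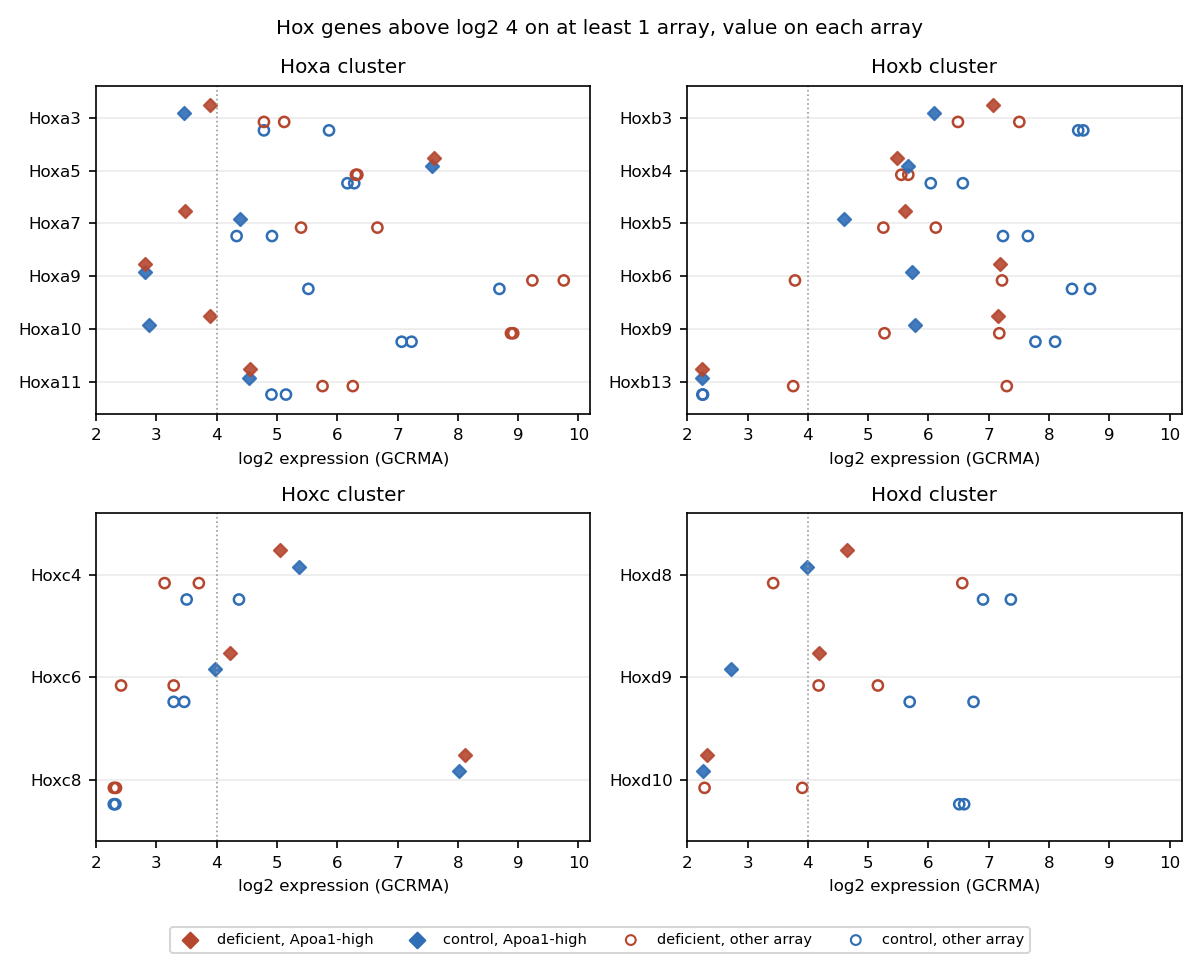
Log2 expression (x axis) of the 18 Hox genes above log2 4 (dotted line) on at least 1 array, in 4 panels by cluster, with 1 point per array. Filled diamonds are the 2 Apoa1-high arrays and open circles the 4 other arrays, deficient in red and control in blue. Hoxa9 and Hoxa10 lie under 4 on both Apoa1-high arrays, Hoxc8 lies near 8 on those and near the floor elsewhere, and Hoxb13 is above 4 on 1 deficient array only.

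Of the 4 posterior Hoxa genes, 2 were set apart and lower on the Apoa1-high arrays, Hoxa9 and Hoxa10. Over all genes 4.83% were, or 7.72% of those above 4 on any array. Hoxa11 also lay below every other array but did not reach a difference of 1, and Hoxa13 was near the floor. Hoxa9, a factor of the posterior axis and of blood progenitors, read 2.81 on deficient array 3 and 2.80 on control array 1. It read 9.76 and 9.24 on deficient arrays 1 and 2, and 5.52 and 8.69 on control arrays 2 and 3. The Apoa1-high mean was thus 2.80 against 8.30 on the other arrays, a difference of -5.50, with the Apoa1-high arrays near the floor. The second Hoxa9 probe set ran the same way, at 2.56 on both Apoa1-high arrays and from 3.57 to 6.33 on the others.

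Hoxa10, which patterns the lumbar axis and the uterus, read 3.89 and 2.87 on the Apoa1-high arrays of the deficient and control mouse. It read 8.92 and 8.88 on the other deficient arrays, and 7.23 and 7.07 on the other control arrays. The difference was -4.64, seen on 1 probe set, while the second stayed between 2.25 and 2.97 on every array. Hoxa11, a factor of limb, kidney and uterus, read 4.55 and 4.54 on the Apoa1-high arrays, 5.76 and 6.26 on the other deficient arrays and 5.15 and 4.91 on the other control arrays. Its Apoa1-high values lay under all others, by a mean of -0.98. Hoxa7, a central gene, read 3.47 and 4.38 there, against 6.67 and 5.40 on deficient arrays 1 and 2 and 4.33 and 4.92 on control arrays 2 and 3, so the groups overlapped.

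Promoters are shown for Hoxa7, Hoxa9 and Hoxa10, neighbours in the Hoxa cluster, and for Hoxd10, which was above log2 4 on 2 control arrays only. They are RefSeq sequences of build GRCm38.p6, 300 bases around an annotated start, given 5′ to 3′ on the gene's strand. Capitals mark TTTATG, a sequence bound by Cdx factors, on either strand. The windows are chr6:52218524-52218823, minus strand, for Hoxa7, chr6:52227321-52227620, minus strand, for Hoxa9, chr6:52240805-52241104, minus strand, for the first Hoxa10 start, chr6:52234890-52235189, minus strand, for the second Hoxa10 start, and chr2:74691641-74691940, plus strand, for Hoxd10.
Hoxa7: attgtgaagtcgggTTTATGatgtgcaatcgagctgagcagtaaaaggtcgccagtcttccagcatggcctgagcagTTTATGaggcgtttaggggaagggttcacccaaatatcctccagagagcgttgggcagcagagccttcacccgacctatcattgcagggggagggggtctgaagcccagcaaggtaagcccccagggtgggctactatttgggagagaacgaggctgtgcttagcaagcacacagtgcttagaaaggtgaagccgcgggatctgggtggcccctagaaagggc
Hoxa9: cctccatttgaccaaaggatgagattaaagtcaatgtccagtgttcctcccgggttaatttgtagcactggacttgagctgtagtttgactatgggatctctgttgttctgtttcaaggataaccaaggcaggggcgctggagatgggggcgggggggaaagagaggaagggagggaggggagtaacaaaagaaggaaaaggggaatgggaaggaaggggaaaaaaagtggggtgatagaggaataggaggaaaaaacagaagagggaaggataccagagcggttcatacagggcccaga
Hoxa10 first start: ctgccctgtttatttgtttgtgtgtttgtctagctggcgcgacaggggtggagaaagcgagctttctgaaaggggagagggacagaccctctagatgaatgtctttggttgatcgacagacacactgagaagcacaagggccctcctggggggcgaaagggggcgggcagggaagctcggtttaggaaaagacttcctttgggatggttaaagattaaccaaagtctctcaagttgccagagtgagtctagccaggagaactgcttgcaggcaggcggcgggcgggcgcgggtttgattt
Hoxa10 second start: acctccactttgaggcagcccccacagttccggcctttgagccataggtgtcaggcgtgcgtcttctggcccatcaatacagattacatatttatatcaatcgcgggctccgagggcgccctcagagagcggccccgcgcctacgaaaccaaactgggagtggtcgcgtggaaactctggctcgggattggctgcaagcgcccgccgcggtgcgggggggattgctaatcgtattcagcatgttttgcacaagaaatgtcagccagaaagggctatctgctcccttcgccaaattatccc
Hoxd10: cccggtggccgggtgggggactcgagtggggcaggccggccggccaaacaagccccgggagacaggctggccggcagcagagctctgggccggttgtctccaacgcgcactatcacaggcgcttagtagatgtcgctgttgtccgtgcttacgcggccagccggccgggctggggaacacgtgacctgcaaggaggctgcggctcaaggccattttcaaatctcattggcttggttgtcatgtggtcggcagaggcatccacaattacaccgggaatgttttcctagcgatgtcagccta

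Hoxa7 held 2 copies of TTTATG, and the other 4 windows held 0. Promoters were found for 19 of the 33 Hox genes, 21 windows in all. TTTATG was in 3 of these windows, or 14.3%, and in 11.9% of 32851 mouse promoters of the same length. A second motif, TGATTNAT, bound by Pbx and Hox proteins together, was in 2 of the 21, or 9.52%, against 3.22% of all promoters, and in none of the 5 shown. The 2 motifs were searched on both strands and overlaps were counted. The Hox windows held a median of 15 CpG dinucleotides, against 7 over all promoters, with 9 for Hoxa7, 4 for Hoxa9, 12 and 21 for the first and second Hoxa10 start and 22 for Hoxd10. Such matches describe letters in a window and say nothing of binding.

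Genes of the Hoxc cluster ran the other way. Hoxc8, which patterns thoracic vertebrae and forelimb motor neurons, read 8.13 and 8.01 on the Apoa1-high arrays of the deficient and control mouse. On the other arrays it read 2.29 and 2.33 in deficient and 2.32 and 2.29 in control mice. The difference was 5.76. It was 4.07 once all values below 4 were raised to 4, as the other arrays were near the floor. Hoxc4, the most anterior gene of this cluster, read 5.05 and 5.36 there, against 3.70 and 3.14 on the other deficient arrays and 3.50 and 4.37 on the other control arrays, a difference of 1.53. Hoxc6, a thoracic gene, lay above the other arrays at 4.22 and 3.97, against 3.29, 2.41, 3.46 and 3.29, by 0.98. The further 4 Hoxc genes were under 4 throughout.

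Hoxa5, which patterns lung and gut mesenchyme, has no settled direction. Its brightest probe set, of a kind prone to cross-hybridisation, read 7.60 and 7.58 on the Apoa1-high arrays against 6.17 to 6.33 on the others. The second probe set read 3.88 and 4.83 there, against 7.69 and 7.84 on the other deficient arrays and 6.16 and 7.26 on the other control arrays. The difference was 1.32 on the first and -2.88 on the second. Hoxa3, a gene of pharynx and thymus development, was set apart and lower at 3.89 and 3.45 against 4.78 to 5.86, on 1 probe set whose suffix marks several matching transcripts. Its further 3 probe sets lay at the floor on every array.

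In all, 3 Hox genes were set apart and lower on the Apoa1-high arrays (Hoxa3, Hoxa9 and Hoxa10) and 3 were set apart and higher (Hoxa5, Hoxc4 and Hoxc8). Over all genes 4.83% were set apart and lower and 3.25% higher. Among genes above log2 4 on at least 1 array the shares were 7.72% and 5.17%, beside 3 and 3 of 18 Hox genes. The median Hox difference was -0.12 over 33 genes and -1.29 over the 18 above 4 on any array, against -0.00048 and -0.063 over all genes and over those above 4. By cluster, the median was -0.98 for Hoxa, -0.56 for Hoxb, 0.084 for Hoxc and -0.11 for Hoxd. By position it was -0.17 for the 7 anterior genes, -0.033 for the 12 central and -0.37 for the 14 posterior ones. These medians include genes under 4 throughout, which pull them toward 0. Only 3 of 8 Hoxd, 3 of 7 Hoxc and 2 of 7 anterior genes were above 4 on any array. The 3 Hoxd genes, Hoxd8, Hoxd9 and Hoxd10, differed by -1.75, -1.99 and -2.53 and were not set apart. The count of lower genes depended on deficient array 2. Without that array, 10 Hox genes were set apart and lower, with Hoxb3, Hoxb5, Hoxb6, Hoxb9, Hoxd8, Hoxd9 and Hoxd10 added. The share of all genes without that array was not computed. With fewer arrays any gene avoids overlap more easily, so the rise cannot be read as particular to Hox genes.

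**Figure D2:**
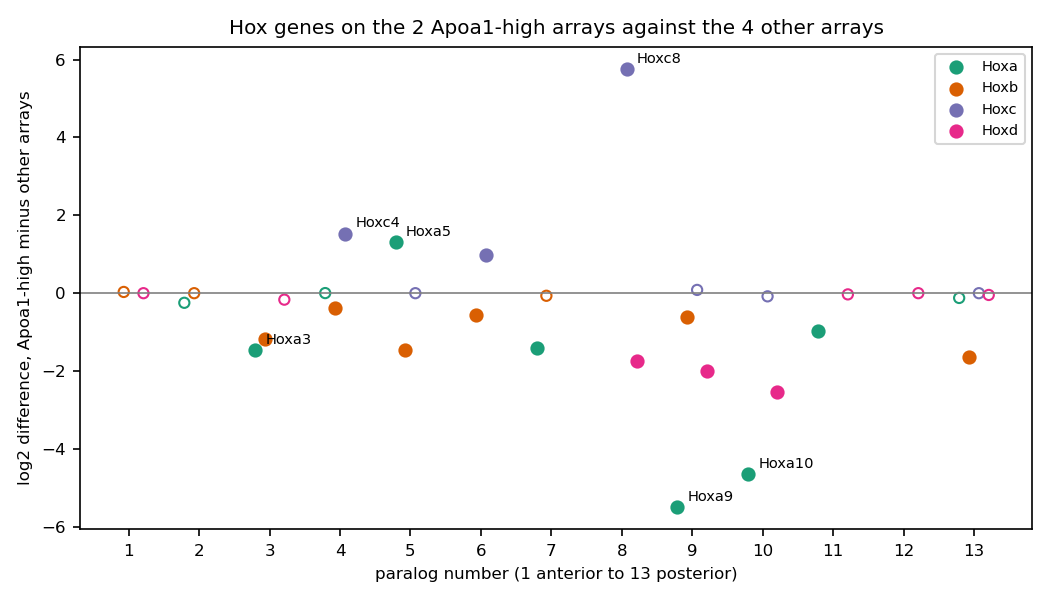
Mean log2 difference of the 2 Apoa1-high arrays minus the 4 other arrays (y axis) for all 33 Hox genes by paralog number (x axis), coloured by cluster. Filled points are genes above log2 4 on at least 1 array and open points are genes under 4 on every array. Hoxa9 at -5.50 and Hoxa10 at -4.64 lie lowest and Hoxc8 at 5.76 highest. The 6 named genes were set apart.

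For Hoxa9, Hoxa10, Hoxc4 and Hoxc8 the direction within each genotype was fixed, since they were set apart over the 6 arrays. Only the size of each difference is new here. Between deficient array 3 and the other deficient arrays, Hoxa9 differed by -6.69, Hoxa10 by -5.01, Hoxc4 by 1.63 and Hoxc8 by 5.82. Between control array 1 and the other control arrays, Hoxa9 differed by -4.30, Hoxa10 by -4.28, Hoxc4 by 1.43 and Hoxc8 by 5.71. Some Hoxb and Hoxd genes gave unlike values in the 2 genotypes. Hoxb6 differed by 1.68 among deficient and by -2.80 among control arrays, and Hoxb3 by 0.077 and -2.44. Hoxd10, a factor of hindlimb motor neurons, differed by -0.78 among deficient and -4.28 among control arrays. Deficient array 2 had the lowest Hoxb6, Hoxb9 and Hoxd8 values of the 6 arrays, and these enter the deficient differences.

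Genotypes were compared with limma across all 18194 genes, deficient minus control, with Benjamini-Hochberg adjustment. No Hox gene was called at an adjusted p under 0.05, and 0% of all genes were. At an unadjusted p under 0.05 there were 0 Hox genes and 924 genes in all, or 5.08%. The smallest adjusted p of a Hox gene was 0.847. Of the 33, 14 had a difference above 0, 16 below 0 and the others were level, with a median of 0, as over all genes. No Hox gene was set apart by genotype over the 6 arrays, where 1.31% of all genes were higher and 0.627% lower, or 2.11% and 1.01% of genes above 4 on any array. Spread within groups was large. Hoxd10 averaged 2.84 ± 0.93 in deficient and 5.12 ± 2.47 in control mice (SD, n = 3 each). They differed by -2.29 (SE 1.44, limma adjusted p 0.847). Hoxa10 averaged 7.23 ± 2.89 in deficient and 5.72 ± 2.47 in control mice, differing by 1.51 (SE 2.08, limma adjusted p 0.900).

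Among the 4 other arrays, the genotypes stood apart for 11 Hox genes, with 4 Hoxb and 3 Hoxd genes lower and 3 Hoxa genes and 1 Hoxb gene higher in deficient mice. Lower in deficient mice were Hoxb3, Hoxb5, Hoxb6, Hoxb9, Hoxd8, Hoxd9 and Hoxd10, 7 of 33, where 2.4% of all genes, or 3.81% of those above 4 on any array, were set apart and lower. Higher were Hoxa7, Hoxa9, Hoxa10 and Hoxb13, 4 of 33, where 4.47%, or 7.16%, were set apart and higher. With 2 mice per group and arrays kept for a measured profile, these are values and not calls. None of the 33 had a limma adjusted p under 0.05 in a fit of these 4 arrays, nor did any other gene. At an unadjusted p under 0.05 there were 4 Hox genes (Hoxa10, Hoxa11, Hoxb5 and Hoxd10) and 8.29% of all genes.

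Hoxb3, Hoxb4, Hoxb5, Hoxb6 and Hoxb9 were higher on both control arrays of this set than on both deficient ones. Hoxb6, a central gene of the trunk, read 7.22 and 3.79 on deficient arrays 1 and 2, against 8.38 and 8.68 on control arrays 2 and 3. The difference was -3.03 (SE 1.56), and -1.31 without deficient array 2. Hoxb9, which patterns the ribs, read 7.18 and 5.27 against 7.77 and 8.10, a difference of -1.71, or -0.76 without deficient array 2. Hoxb5, which acts in the migration of enteric neural crest, read 6.12 and 5.25 against 7.24 and 7.65, and Hoxb3, a hindbrain gene, 7.51 and 6.49 against 8.48 and 8.57. Hoxb4, a regulator of blood stem cells, read 5.67 and 5.55 against 6.57 and 6.04, a smaller gap of -0.70.

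The Hoxd genes followed the Hoxb genes. Hoxd10 read 3.91 and 2.29 on deficient arrays 1 and 2, against 6.59 and 6.51 on control arrays 2 and 3. It differed by -3.45 (SE 0.73, limma adjusted p 0.539), and by -2.55 once all values below 4 were raised to 4. Hoxd8 read 6.56 and 3.42 against 6.91 and 7.37, a difference of -2.14 that was -0.58 without deficient array 2. Hoxd9 read 5.16 and 4.18 against 5.69 and 6.75. The lowest Hoxd8 value of all 6 arrays was that of deficient array 2.

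The posterior Hoxa9, Hoxa10 and Hoxa11 and the central Hoxa7 ran the other way in this set. Hoxa10 read 8.92 and 8.88 in deficient, against 7.23 and 7.07 in control mice, differing by 1.75 (SE 0.076, limma adjusted p 0.194, the smallest of the 33). The fit with the Apoa1-high arrays as a block gave 1.51 and a limma adjusted p of 0.386 over all 6 arrays. In that fit 1 Hox gene, Hoxa10, had an unadjusted p under 0.05, as did 7.88% of all genes. Hoxa9 differed by 2.39, or by 0.81 without control array 2, which read 5.52. Hoxa7 differed by 1.41, and Hoxa11 by 0.98. Hoxb13, a gene of the tail end of the axis that is also known from distal colon and prostate, read 3.76 and 7.30 in deficient, against 2.26 and 2.25 in control mice. Both Apoa1-high arrays read 2.25, so Hoxb13 was above log2 4 on deficient array 2 alone, and its difference of 3.27 was 1.5 without that array. The array highest for Hoxb13 was the one lowest among these 4 for Hoxb6, Hoxb9, Hoxd8, Hoxd9 and Hoxd10.

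**Figure D3:**
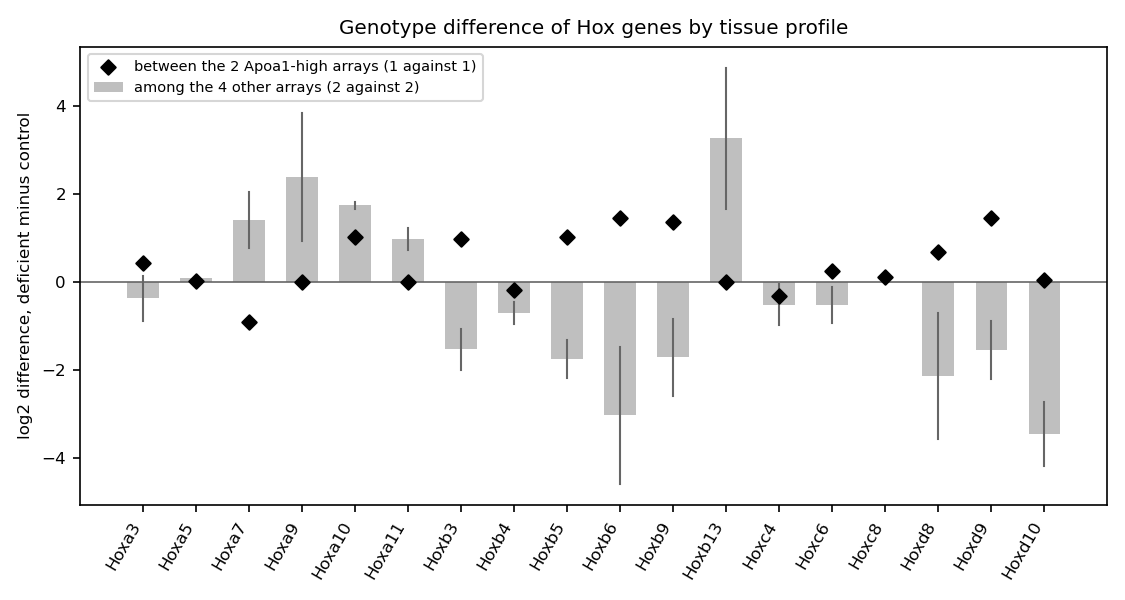
Log2 difference, deficient minus control (y axis), for the 18 Hox genes above log2 4 on at least 1 array. Grey bars give the mean difference among the 4 other arrays with limma's standard error as a line (2 against 2 mice), and black diamonds the difference between the 2 Apoa1-high arrays (1 against 1). The plotted Hoxb genes other than Hoxb13, and Hoxd8 to Hoxd10, lie below 0 among the 4 arrays. The Apoa1-high pair lies above 0 for those genes except Hoxb4, at -0.19.

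Antisense transcripts of 3 clusters were lowest on the Apoa1-high arrays. Hoxa11os, antisense to Hoxa11, read 2.84 on both Apoa1-high arrays, 6.07 and 7.08 on the other deficient arrays and 4.06 and 5.17 on the other control arrays. Hoxb5os read 2.97 and 3.51 on the Apoa1-high arrays of the deficient and control mouse, 8.38 and 6.59 on the other deficient arrays and 8.01 and 8.86 on the other control arrays. Hoxd3os1 read 3.14 and 2.41 there, against 5.44 and 3.15 in deficient and 6.62 and 6.62 in control mice, so that deficient arrays 2 and 3 were nearly level. Hoxa11os and Hoxd3os1 each had a second probe set, which lay at 2.25 on every array. Of 10 measured genes inside or beside the clusters, 3 were set apart and lower on the Apoa1-high arrays, against 4.83% of all genes, namely Hoxa11os, Hoxb5os and Hoxd3os1. Beyond the cluster ends, Snx10, a sorting nexin, differed by 1.03 between genotypes (limma adjusted p 0.847), and Evx1 and Evx2, homeobox genes next to Hoxa13 and Hoxd13, lay at the floor.

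Of the factors upstream of Hox genes, the ParaHox list (6 of 6 measured) gave 2 expressed genes. Cdx2, a master regulator of intestinal identity, read 9.95, 9.45 and 9.74 on deficient arrays 1 to 3, against 9.84, 10.76 and 10.35 on control arrays 1 to 3, a difference of -0.60 (limma adjusted p 0.847). Cdx1 read 9.14 to 9.92 in deficient against 9.17 to 9.63 in control mice. Neither was set apart on the Apoa1-high arrays, and Cdx4, Pdx1, Gsx1 and Gsx2 lay at the floor. Among 13 gut regional transcription factors, 2 were set apart and higher on the Apoa1-high arrays and 1 lower, against 3.25% and 4.83% of all genes. Gata5, an endoderm factor, read 6.88 and 7.79 there against 2.82 to 3.29 elsewhere. Tbx3, a T-box factor, read 8.77 and 9.66 against 6.02 to 7.57. Foxf2, a factor of gut mesenchyme, read 4.70 and 5.66 against 5.83 to 6.78, and Foxf1, also mesenchymal, lay below the others by 0.94 at 7.42 and 6.67 against 7.60 to 8.48.

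TALE cofactors, the homeodomain partners of Hox proteins, gave 2 of 8 measured members set apart and lower on the Apoa1-high arrays, where 4.83% of all genes, or 7.72% of those above 4 on any array, were. Pbx3 read 7.24 and 7.53 against 8.31 to 9.52, and Meis1 read 6.50 and 6.71 against 7.54 to 8.41. Pbx2 and Meis2 lay below all other arrays by 0.87 and 0.99. Of 18 Polycomb genes, which keep Hox genes silent, and 7 Trithorax genes, which keep them active, 0 were set apart on these arrays. Jarid2 differed by 0.80 and Phc3 by -0.78. By genotype, Kdm6b, a histone demethylase, differed by -0.56 and Rbbp7, a histone-binding subunit, by 0.32, each with a limma adjusted p of 0.847. Retinoic acid genes, which act on anterior Hox genes in the embryo, gave 1 of 15 set apart and lower on the Apoa1-high arrays, Dhrs3, at -1.18, a count near the 4.83% of all genes and 7.72% of genes above 4. By genotype, 3 of the 15 had a difference above 0 and 10 below 0. Rdh10, which makes retinaldehyde, differed by 0.98 and Aldh1a1 by -1.66, each with a limma adjusted p of 0.847. Aldh1a1 was the 1 member set apart by genotype, at 10.93 in deficient against 12.59 in control mice. Over all genes 0.627% were set apart and lower in deficient mice. No member of these lists was called by genotype.

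**Figure D4:**
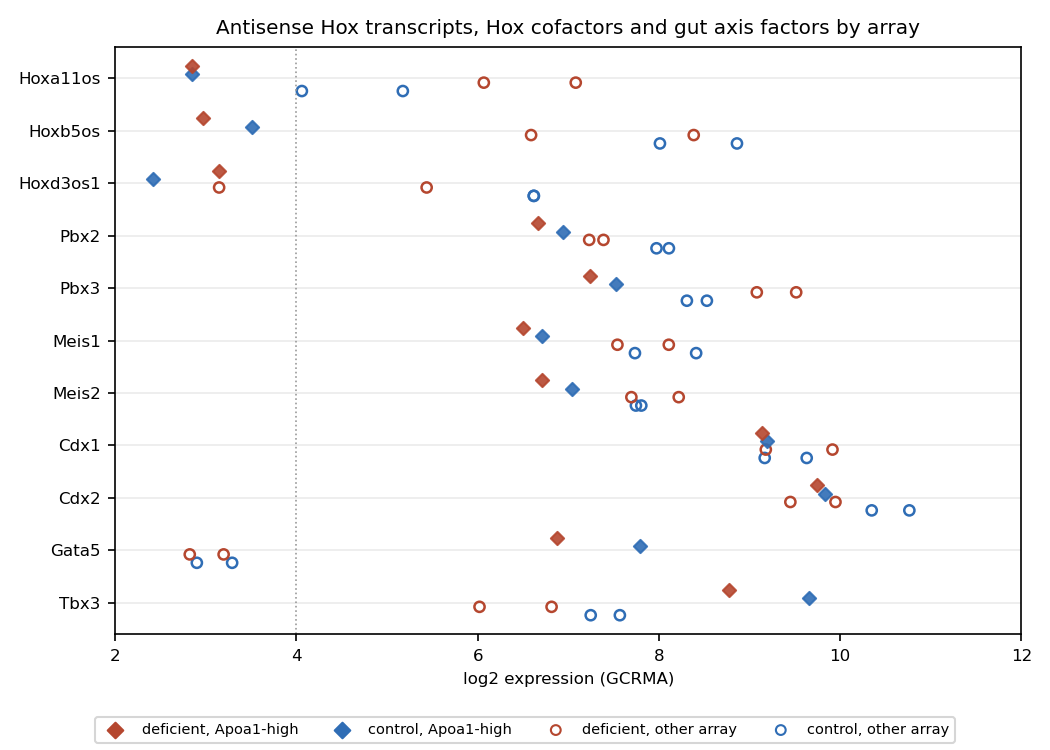
Log2 expression (x axis) of antisense Hox transcripts, Hox cofactors and gut axis factors, with 1 point per array. Filled diamonds are the 2 Apoa1-high arrays and open circles the 4 other arrays, deficient in red and control in blue. The antisense transcripts lie under log2 4 (dotted line) on both Apoa1-high arrays, Gata5 lies above 4 on those alone, and Cdx1 and Cdx2 overlap.

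Markers of cell types also differed between the arrays, and their part in the Hox differences was not tested. Fewer cells of a type and less RNA per cell cannot be told apart in whole tissue. Of 8 fibroblast markers 4 were set apart and lower on the Apoa1-high arrays, against 4.83% of all genes. On those arrays the mean log2 level of the 8 was 10.65 and 10.11, against 11.20 and 12.16 on the other deficient arrays and 11.29 and 11.28 on the other control arrays. Of 9 smooth muscle markers 3 were lower, with means of 10.33 and 9.99 against 11.00 to 11.23. Of 10 enteric neuron and glia markers 4 were lower, with means of 4.56 and 4.54 against 4.99 to 5.77, and Chat, S100b and Gfap were under log2 4 on all arrays. Of 9 epithelial markers 2 were set apart and higher, Krt20 and Vil1, against 3.25% of all genes, or 5.17% of those above 4 on any array. The means of the 9 were 13.12 and 13.32 against 12.85 to 13.03, and their median difference was 0.14.

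By genotype, leukocyte markers had mean levels of 6.32, 7.03 and 5.61 on deficient arrays 1 to 3, against 5.10, 4.82 and 5.73 on control arrays 1 to 3. Among the 4 other arrays 4 of 10 were set apart and higher in deficient mice, against 4.47% of all genes, including S100a8, a neutrophil protein, at 10.26 and 12.06 against 4.55 and 8.30. Over all 6 arrays Itgam, an integrin of myeloid cells, differed by 1.76 and Car4, a colonocyte carbonic anhydrase, by 1.33, each with a limma adjusted p of 0.847. Cd4 and Cd79a were under 4 throughout. Adipocyte markers, 3 measured, had means of 5.43, 5.03 and 6.17 against 6.67, 7.48 and 6.53, and Adipoq differed by -1.74 and Cidec by -2.26, each with a limma adjusted p of 0.847. Deficient array 2, the array with Hoxb13, had the highest fibroblast, neural and leukocyte means of the 6. Of 5 squamous markers, Krt4, Krt13, Krt14 and Trp63 were under 4 on all arrays and Krt5 read 5.07 to 5.09, and of 4 pancreas markers only Cela1 was above 4.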

How the data were processed

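Each of the 6 samples is 1 array (Affymetrix mouse genome array) hybridised with RNA from 1 mouse. The authors deposited log2 expression summaries per probe set, made with GCRMA per the submitters' processing notes. GCRMA subtracts background modelled on probe sequence, so probe sets without signal come to rest at low values that can differ between them. Differences near those values are compressed. The sources used here do not state its version or settings. That the scale is log2 follows from the values, from 2.25 to 16.2, and 41.4% to 42.7% of probe sets lay above log2 4 per array. The number of arrays limits the precision. The p-values set a difference against the spread within groups, which in the fit of all 6 arrays without a block includes the Apoa1-high division.

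The table held 45101 probe sets, and 34958 of them named 1 gene in the platform annotation, giving 18194 genes. Each gene took its probe set of highest mean, with no filter. The genotype test was limma (version 3.58.1, R 4.3.3, two-sided, with eBayes and no covariate), adjusted with Benjamini-Hochberg over all genes. The procedure was run on simulated data, drawn independently for each gene from a normal distribution. That simulation held no division by Apoa1 level, so it does not show how the test behaves under one. The Apoa1-high arrays were those with the brightest Apoa1 probe set above log2 12. The members and gene lists were chosen with earlier results of these data known, and no list was tested as a set. All Hox genes above log2 4 on 1 array or more are named with values. Of each list up to 4 members above log2 6 with the largest Apoa1-high difference, and members with an unadjusted p under 0.05, could be named. Motifs and the counts of genes set apart within the 4 other arrays were added after the data were seen. Alternatives were a filter, quantile normalization, median centring, other probe set rules, a floor at 4, eBayes with trend and robust, a replicate block, a block for or omission of the Apoa1-high arrays, an adjusted p under 0.1 and leaving out each array. Sequences are from RefSeq (GRCm38.p6).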

Additional observations from a re-analysis of the deposited data

Results flagged for a closer look

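For 7 Hox genes the genotype difference pointed one way among the 4 other arrays and the other way between the 2 Apoa1-high arrays, by at least 0.5 between those 2. Between the Apoa1-high arrays, deficient minus control was 0.98 for Hoxb3, 1.02 for Hoxb5, 1.45 for Hoxb6, 1.37 for Hoxb9, 0.67 for Hoxd8 and 1.45 for Hoxd9. Among the 4 other arrays the same genes differed by -1.53, -1.76, -3.03, -1.71, -2.14 and -1.55, in that order. Hoxa7 was -0.92 between the Apoa1-high arrays and 1.41 among the others. An interaction term in limma over all genes, with 2 residual degrees of freedom, called 0 of the 7. Their smallest adjusted p was 0.434, for Hoxb5. That fit called 3.14% of all genes. The pair is 1 mouse against 1 mouse, so it has no spread of its own.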

How the results depend on the processing

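No setting called a Hox gene by genotype at an adjusted p under 0.05. Over all genes the count was 0 as analysed and ranged from 0 to 6 when 1 array was left out, with 6 without control replicate 1. The labels give no pairing of the mice. Deviations of same-numbered arrays correlated at -0.54, 0.36 and -0.60. The Apoa1-high profile lies on control array 1 and deficient array 3 and enters these values, so they cannot settle pairing. With the replicate block, 0 Hox genes and 0 genes were called. The count of Hox genes set apart and lower on the Apoa1-high arrays, 3 as analysed, ranged from 3 to 10 when 1 array was left out, with 5 without control replicate 2 or 3, 7 without deficient replicate 3 and 10 without deficient replicate 2. It was 6 within deficient and 10 within control arrays alone. The shares of all genes under these settings were not computed, and fewer arrays make overlap less likely for any gene. Results that turned did so with the choice of probe set. Hoxa5 on the Apoa1-high arrays was -0.78 as a mean of its probe sets and -2.88 on its probe set without suffix, against 1.32. Hoxa3 was 0.0041 without suffixes, against -1.47. Without suffixes Hoxa10 is read from a probe set at the floor, and its genotype difference was -0.16 over all arrays and -0.24 among the 4 other arrays. Among those 4 arrays, the count of lower Hox genes ran from 5 to 7 and that of higher ones from 3 to 4 over all settings, which were added after the data were seen. The filter on low values left 14 Hox genes and removed Hoxb13, Hoxc6, Hoxc8 and Hoxd10 of the 18.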
